A study of Mus musculus with 16 samples.

Results

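The comparison described here sets cultured mouse cortical neurons that carried a short hairpin RNA (shRNA) against c-Fos beside neurons that carried a control shRNA, both after 6 h of depolarization with potassium chloride (KCl). It was chosen by the array titles and holds 4 of the 16 arrays of the series, 2 for c-Fos shRNA and 2 for the control. All cultures came from cortices of C57BL/6 embryos taken at embryonic day 16.5. Lentivirus carrying either the hairpin against c-Fos or a hairpin against firefly luciferase, a gene that mouse cells lack, was added on day 5 in culture for 6 h with polybrene at 6 µg/ml. On day 7 activity was silenced in every culture before KCl was added for 0, 1, 3 or 6 h, with 2 arrays for each hairpin and time. So the control neurons were also infected, exposed to polybrene and silenced. The labels name 1 hairpin against c-Fos and 1 control hairpin and give neither their sequences nor the promoter that drives them. Effects of losing c-Fos and other effects of that hairpin or virus therefore cannot be told apart in this design.

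Fos encodes c-Fos, a leucine zipper protein that pairs with Jun proteins to form the transcription factor AP-1. AP-1 binds a short palindromic DNA motif in promoters and enhancers. In neurons, calcium entering through voltage-gated channels switches Fos on within minutes. Fos belongs to the immediate early genes, whose products act on a later set of genes that includes secreted peptides, signalling inhibitors and synaptic proteins. Potassium chloride in the medium depolarizes the membrane and opens those channels, which is why it serves as a stand-in for activity.

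The values are intensities of Affymetrix mouse 430 2.0 arrays, in arbitrary units, given below as deposited and array by array. Differences are on the log2(intensity + 16) scale after quantile normalization, c-Fos shRNA minus control shRNA, with the standard error (SE) of the fit. A gene was called when its limma p-value, adjusted by the Benjamini-Hochberg method over all 13915 genes tested, was under 0.05. Array medians ran between 105 and 119. At 6 h the correlation of the log2 values across genes was 0.9918 between the 2 c-Fos arrays and 0.9914 between the 2 control arrays, and between 0.9752 and 0.9812 across the hairpins. The 3 probe sets for 18S ribosomal RNA were dimmer with c-Fos shRNA on average, for example 4500 and 4560 against 5600 and 5150 at the 3′ probe set, and their part in the results was not tested. The labels call the samples biological replicates but not whether each had its own dissection. The p-values thus reflect variation among the arrays at hand, which may be technical.

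Fos itself was the first check of the labels. Its 1 probe set (gene at chr12:85473890-85477274, GRCm38.p6) read 3140 and 3340 in the c-Fos shRNA neurons at 6 h, against 12000 and 11900 in the control neurons. The arrays of the hairpins did not overlap, and Fos was 3.60-fold lower with its shRNA (-1.85 ± 0.10, adjusted p = 5.29e-07). The knockdown was partial. Averaged over 2 arrays, Fos stood at 135, 8680, 4030 and 3240 after 0, 1, 3 and 6 h of KCl in the c-Fos shRNA neurons, and at 246, 14700, 13500 and 11900 in the control neurons. KCl thus raised Fos in both, and the difference was -0.77, -0.75, -1.74 and -1.85 at 0, 1, 3 and 6 h.

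Of the other AP-1 subunits only Atf3, a bZIP protein that can pair with Jun, was called. Atf3 read 349 and 480 with c-Fos shRNA against 1060 and 948 with control shRNA, a 2.37-fold fall (-1.24 ± 0.19, adjusted p = 0.000571). Fosb, the nearest relative of Fos, read 1340 and 1230 against 1070 and 635, a difference of 0.61 (95% interval 0.14 to 1.08) that was not called (adjusted p = 0.0605). Jun, the main partner, read 1480 and 1830 against 1910 and 2200, with a difference of -0.29 (interval -0.65 to 0.07). In a fit with the replicate number as a block, Fosb (adjusted p = 0.0103), Fosl1 (-0.41, adjusted p = 0.0241) and Jun (adjusted p = 0.00234) were called too. Fosb was also called without the control array of replicate 1 (0.99, adjusted p = 0.00555). Fosl2, Junb and Jund differed by 0.12, -0.13 and -0.09 and were called in neither fit. Over the 10 measured subunits without Fos the median difference was -0.13, beside 0.02 over all genes tested.

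Across the array, 3311 genes were called with c-Fos shRNA at 6 h, 1859 higher (13.4%) and 1452 lower (10.4%). By at least 2-fold, 213 were higher and 150 lower. The replicate numbers pair the arrays, and with the number as a block 3164 genes were higher and 2613 lower. The total of calls was 2099 without the control array of replicate 1 and 2199 without the c-Fos array of replicate 2. Of the 1452 falls, 696 kept their call without each of the 4 arrays in turn, and of the 1859 rises 789 did. In bulk RNA, fewer cells of a type and less RNA per cell cannot be told apart.

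**Figure D1:**
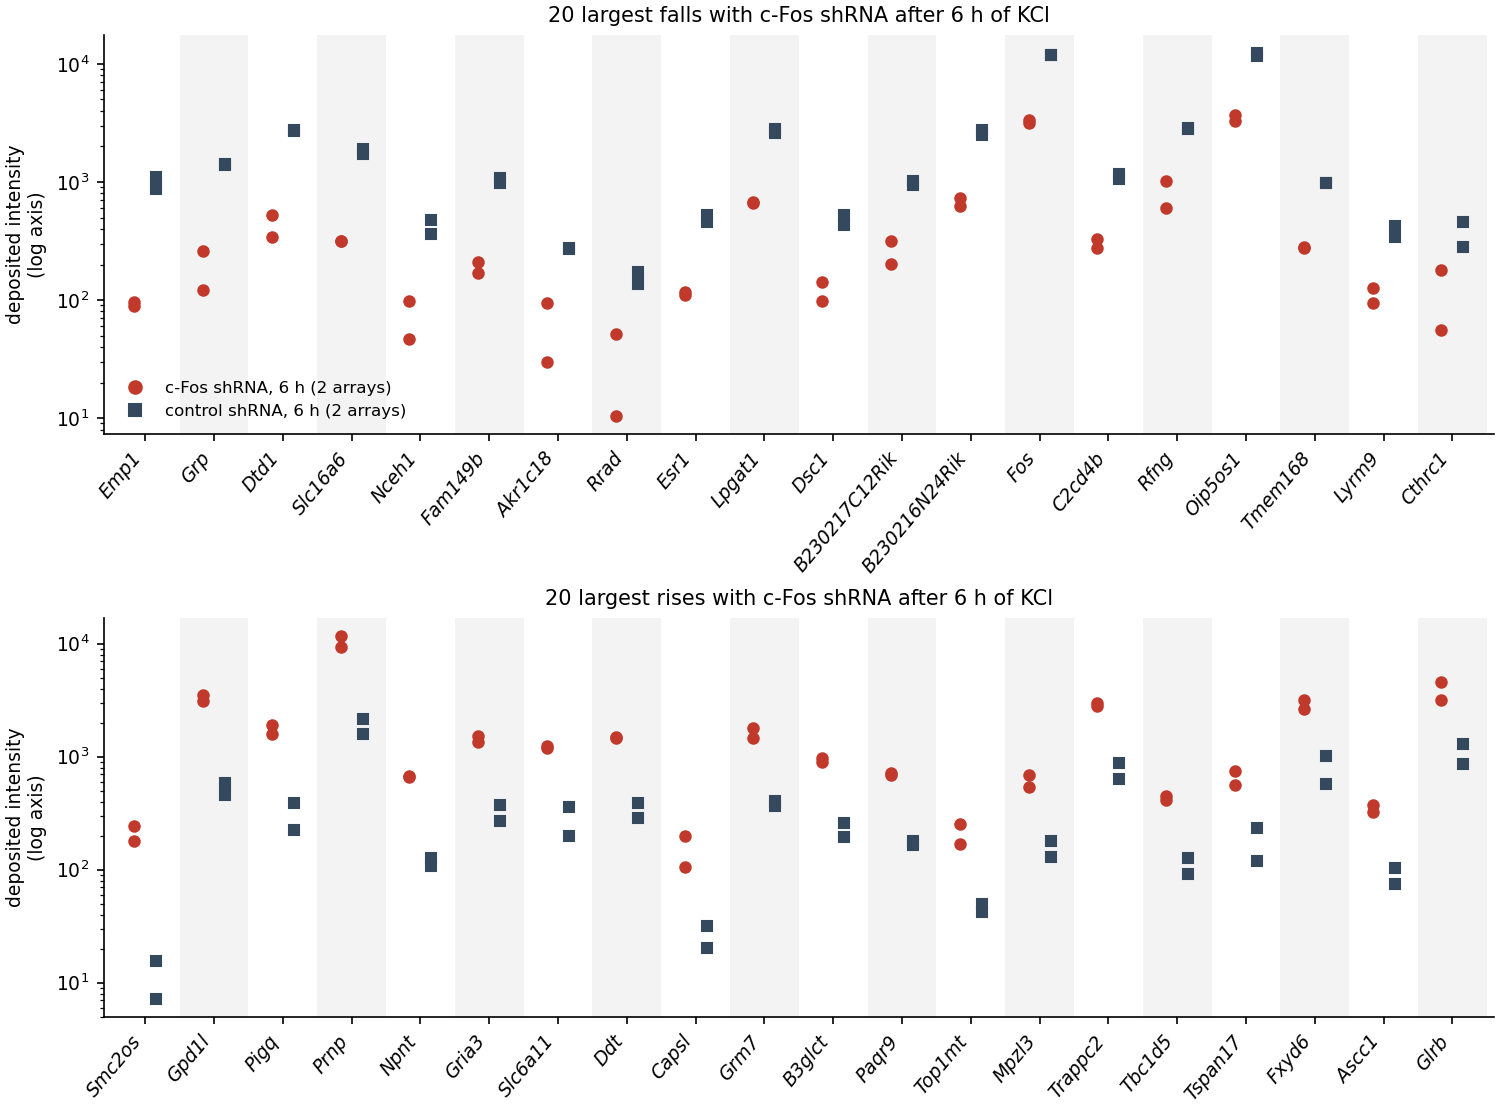
Deposited intensity (arbitrary units, log axis) on each array for the 20 genes that fell most (top) and the 20 that rose most (bottom) with c-Fos shRNA after 6 h of KCl, ordered by size. Red circles are the 2 c-Fos shRNA arrays and dark squares the 2 control shRNA arrays of each gene. Emp1 sits at 96.1 and 88.8 against 1100 and 874. Only genes whose groups do not overlap were eligible.

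The largest fall was that of Emp1, epithelial membrane protein 1, a tetraspan protein of the plasma membrane (chr6:135362550-135383173). Emp1 read 96.1 and 88.8 with c-Fos shRNA against 1100 and 874 with control shRNA, so it was 9.37-fold lower (-3.23 ± 0.21, adjusted p = 1.15e-06). Both c-Fos arrays were near the level of the silenced control neurons. Mean Emp1 intensity after 0, 1, 3 and 6 h of KCl was 41.8, 50.2, 71.4 and 92.5 in the c-Fos shRNA neurons and 89.5, 85.2, 384 and 989 in the control neurons. KCl raised it in the control neurons, and most of that rise was missing with c-Fos shRNA. A dimmer probe set of Emp1 differed by 0.25 and was not called.

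Emp1 and 116 other KCl-induced genes fell, and the part of their promoters in these falls was not tested. The promoters of the 6 genes below are shown because these genes were induced by KCl in the control neurons, fell at 6 h with c-Fos shRNA and hold the AP-1 motif TGANTCA within 250 bases before and 50 bases after the annotated start. The first, that of Emp1, and the promoter of B230216N24Rik, an uncharacterized transcript, also belong to the 20 largest falls. Csrnp1 encodes a nuclear protein of the immediate early class, Gpr3 a receptor that raises cyclic AMP, Prok2 the secreted peptide prokineticin 2 and Mlf1 myeloid leukemia factor 1. These 4 were chosen after their values were seen, as those with the next largest falls. Each line runs 5′ to 3′ on the gene's strand, from RefSeq on GRCm38.p6, and capitals mark the AP-1 motif.
Emp1, chr6:135362681-135362980, plus strand: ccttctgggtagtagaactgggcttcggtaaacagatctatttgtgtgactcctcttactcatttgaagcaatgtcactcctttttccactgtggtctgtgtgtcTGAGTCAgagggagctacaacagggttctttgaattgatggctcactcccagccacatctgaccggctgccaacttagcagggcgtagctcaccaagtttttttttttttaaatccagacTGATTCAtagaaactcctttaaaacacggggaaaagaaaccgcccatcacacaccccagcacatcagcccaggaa
B230216N24Rik, chr1:98047744-98048043, minus strand: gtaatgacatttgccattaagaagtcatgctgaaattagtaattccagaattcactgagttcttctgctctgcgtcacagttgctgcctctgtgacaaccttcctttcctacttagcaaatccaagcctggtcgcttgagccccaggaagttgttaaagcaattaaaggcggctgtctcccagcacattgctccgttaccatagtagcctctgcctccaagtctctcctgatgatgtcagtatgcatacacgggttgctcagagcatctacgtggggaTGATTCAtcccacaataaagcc
Csrnp1, chr9:119982974-119983273, minus strand: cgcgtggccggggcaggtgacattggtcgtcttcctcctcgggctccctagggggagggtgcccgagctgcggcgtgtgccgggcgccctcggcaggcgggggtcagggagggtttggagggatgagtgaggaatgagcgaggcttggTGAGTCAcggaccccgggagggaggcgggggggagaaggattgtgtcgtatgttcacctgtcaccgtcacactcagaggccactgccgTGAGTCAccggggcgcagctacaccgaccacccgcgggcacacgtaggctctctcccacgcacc
Gpr3, chr4:133212487-133212786, minus strand: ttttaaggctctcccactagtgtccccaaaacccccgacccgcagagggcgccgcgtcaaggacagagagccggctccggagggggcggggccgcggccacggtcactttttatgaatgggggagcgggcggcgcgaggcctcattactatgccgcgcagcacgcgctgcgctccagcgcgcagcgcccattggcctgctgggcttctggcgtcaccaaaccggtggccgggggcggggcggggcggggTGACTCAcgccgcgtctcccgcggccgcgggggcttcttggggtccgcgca
Prok2, chr6:99726343-99726642, minus strand: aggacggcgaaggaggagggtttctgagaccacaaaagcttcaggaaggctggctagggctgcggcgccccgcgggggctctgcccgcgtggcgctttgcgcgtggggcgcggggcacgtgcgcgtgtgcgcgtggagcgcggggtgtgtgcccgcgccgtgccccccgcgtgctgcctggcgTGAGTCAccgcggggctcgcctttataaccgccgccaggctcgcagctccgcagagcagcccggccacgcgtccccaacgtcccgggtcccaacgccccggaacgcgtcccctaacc
Mlf1, chr3:67373847-67374146, plus strand: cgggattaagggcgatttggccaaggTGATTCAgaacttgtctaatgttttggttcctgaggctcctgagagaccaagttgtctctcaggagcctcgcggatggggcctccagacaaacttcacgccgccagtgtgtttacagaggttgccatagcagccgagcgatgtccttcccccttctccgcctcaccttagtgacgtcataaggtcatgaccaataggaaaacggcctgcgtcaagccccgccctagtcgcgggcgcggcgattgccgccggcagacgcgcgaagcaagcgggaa
The pattern TGANTCA, with N for any base, reads the same on both strands. A single match does not, since TGAGTCA reads TGACTCA on the other strand. Emp1 has 2 annotated starts and Csrnp1 4 in the promoter table, and of each only the one printed holds the motif; the shares given further on count a gene if any of its promoters does. Counted from the start base as 0, Emp1 holds TGAGTCA at -145 and TGATTCA at -25, and Csrnp1 holds TGAGTCA at -102 and at -14. B230216N24Rik holds TGATTCA at 28, Gpr3 TGACTCA at -1, Prok2 TGAGTCA at -67 and Mlf1 TGATTCA at -224. A match is a description of these letters and was not tested for binding.

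Beside Emp1, the values of these genes at 6 h were as follows. B230216N24Rik read 622 and 728 with c-Fos shRNA against 2760 and 2520 with control shRNA (-1.89 ± 0.12, adjusted p = 1.14e-06), and its other probe set fell by 1.66. Csrnp1 read 276 and 241 against 615 and 550 (-1.15 ± 0.17, adjusted p = 0.000557). Mlf1 read 1710 and 1790 against 2800 and 2790 (-0.65 ± 0.08, adjusted p = 0.000169). Gpr3 read 127 and 185 against 307 and 379 (-1.09 ± 0.29, adjusted p = 0.0163), and its call was lost without the c-Fos array of replicate 1 (adjusted p = 0.121) or the control array of replicate 2 (adjusted p = 0.0916). Prok2 read 472 and 635 against 857 and 989 (-0.73, adjusted p = 0.00791), and was likewise lost without the c-Fos array of replicate 1 (adjusted p = 0.0797) or the control array of replicate 2 (adjusted p = 0.0558).

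Promoters could be matched for 11178 of the genes tested. The AP-1 motif stood in 10 of the 89 KCl-induced genes that fell at 6 h (11.2%) and in 10 of the 196 KCl-induced genes that did not (5.1%), beside 6.22% of all tested genes with a promoter and 7.81% of all 32851 promoters of this length. The other 4 such genes were Klf9, Lmna, Tnfaip6 and Hdac9, named here after their values were seen, with differences of -0.57, -0.47, -0.46 and -0.44. The match allowed any middle base. In B230216N24Rik, Mlf1, Klf9 and Hdac9 it was A or T only, and shares for C or G alone were not counted. Lmna was not called in the mean over its probe sets (adjusted p = 0.0682), Tnfaip6 not without any of the 4 arrays (adjusted p between 0.0578 and 0.242), and Hdac9 not without the c-Fos array of replicate 2 (-0.30) or the control array of replicate 1 (-0.35). Of all called falls 7.69% held the motif, of the falls of at least 2-fold 9.84%, and of all called rises 4.94%. The cyclic AMP response element TGACGTCA, also a palindrome, stood in 11.2% of the KCl-induced genes that fell and in 10.2% of those that did not, beside 3.37% of all tested genes with a promoter. Most genes of these groups therefore hold neither motif in this window, which leaves out distal enhancers.

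Next to Emp1, the gene of a bombesin-like neuropeptide fell most. Grp, gastrin-releasing peptide, read 121 and 259 with c-Fos shRNA against 1410 and 1380 with control shRNA, a 7.17-fold fall (-2.84 ± 0.38, adjusted p = 0.000219). Unlike Emp1 it hardly answered to KCl in the control neurons (0.15 between 3 h and 0 h), and it was already lower at 0 h (-2.05). Dtd1, which removes D-amino acids from tRNA, read 340 and 529 against 2720 and 2780, a 6.03-fold fall (-2.59 ± 0.24, adjusted p = 1.57e-05), with -1.99 at 0 h. Slc16a6, a member of the monocarboxylate transporter family, read 315 and 317 against 1910 and 1720, a 5.40-fold fall (-2.43 ± 0.11, adjusted p = 2.38e-07). The control level of Slc16a6 fell at 3 h of KCl and returned by 6 h (1880, 1560 and 997 at 0, 1 and 3 h), while in the c-Fos shRNA neurons it stayed low after 3 h (1060, 768 and 277 at 0, 1 and 3 h). Nceh1, a hydrolase of cholesterol esters, read 47.2 and 98.7 against 361 and 472 (-2.40 ± 0.28, adjusted p = 8.13e-05).

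Several of the large falls were of genes that respond to KCl. C2cd4b, a nuclear C2-domain protein, read 278 and 329 with c-Fos shRNA against 1160 and 1060 with control shRNA (-1.81 ± 0.17, adjusted p = 1.95e-05). It was not called at 0 h (-0.04), and at 3 h it averaged 245 against 1030. Dsc1, a desmosomal cadherin that KCl raised by 1.70 in the control neurons, read 98.9 and 142 against 435 and 529 (-1.93 ± 0.29, adjusted p = 0.000509), while its other probe set differed by -0.39 and was not called. Rrad, a small GTPase that restrains voltage-gated calcium channels, read 10.4 and 51.8 against 136 and 173 (-2.03, adjusted p = 0.00575). The 2 c-Fos arrays of Rrad differ and average under the filter level, and without that of replicate 1 its call was lost (-1.38, adjusted p = 0.0606).

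For 3 other large falls the difference was of similar size at every time. Lpgat1, an acyltransferase of membrane lipids, read 683 and 658 with c-Fos shRNA against 2620 and 2800 with control shRNA (-1.94 ± 0.08, adjusted p = 8.86e-08), and its differences at 0, 1 and 3 h were -1.91, -1.96 and -2.17. Esr1, estrogen receptor alpha, read 111 and 118 against 528 and 462 (-2.01 ± 0.18, adjusted p = 1.38e-05), with -2.10 at 0 h. Oip5os1, an abundant long non-coding RNA of neurons also called Cyrano, read 3260 and 3720 against 11700 and 12400 (-1.77 ± 0.11, adjusted p = 9.76e-07), with -1.94 at 0 h. In the control neurons KCl changed Lpgat1 by -0.26 at 3 h and -0.53 at 6 h relative to 0 h, and Oip5os1 by -0.06 and -0.04. Esr1 changed by -0.70 at 3 h and by 0.85 at 6 h (adjusted p = 0.0022), so that it was above its 0 h level at the time compared here. Fam149b (-2.35), Rfng, a glycosyltransferase that modifies Notch (-1.79), Tmem168 (-1.75), Lyrm9 (-1.72) and B230217C12Rik (-1.89) were also lower at 0 h, with differences of -2.04, -1.59, -1.57, -1.08 and -0.94. The change against 0 h was not called for these 5 genes, but with the replicate block it was for Lyrm9 (adjusted p = 0.00646) and B230217C12Rik (adjusted p = 0.00124). Akr1c18, a steroid dehydrogenase, averaged 62.5 against 272 (-2.07, adjusted p = 0.00801), with its 2 c-Fos arrays apart. Without the c-Fos array of replicate 1 its call was lost (-1.44, adjusted p = 0.0872). Cthrc1, a secreted collagen-repeat protein, read 55.9 and 179 against 283 and 456 (-1.71, adjusted p = 0.0369). It was not called at 0 h (-0.53, adjusted p = 0.556), and at 6 h it lost its call without the c-Fos array of replicate 1 (-1.01), the control array of replicate 1 (-2.03) or that of replicate 2 (-1.40).

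The genes that respond to KCl were called at 6 h mostly in the direction opposite to their KCl response. KCl-induced genes were taken as those called and at least 2-fold higher at 3 h than at 0 h in the control neurons. KCl-repressed genes were those called and at least 2-fold lower. The differences that class them use no 6 h array. The arrays of 6 h did enter the normalization, the filter, the choice of probe set and the shared estimate of spread. Of 370 KCl-induced genes other than Fos, 117 were lower with c-Fos shRNA at 6 h (31.6%) and 34 were higher (9.19%), with a median difference of -0.22. Of 474 KCl-repressed genes, 131 were higher (27.6%) and 17 were lower (3.59%), with a median of 0.22. Of the other 13071 genes 13% were higher and 10.1% lower, with a median of 0.02. With the replicate block 176 of these KCl-induced genes were lower and 194 of these KCl-repressed genes higher. Without the control array of replicate 1 they were 70 and 77; the count of KCl-repressed genes higher was 87 and 80 without the c-Fos array of replicate 1 and of replicate 2. At 1 h the medians of the classes were -0.08 for KCl-induced, -0.03 for KCl-repressed and 0.02 for other genes.

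**Figure D2:**
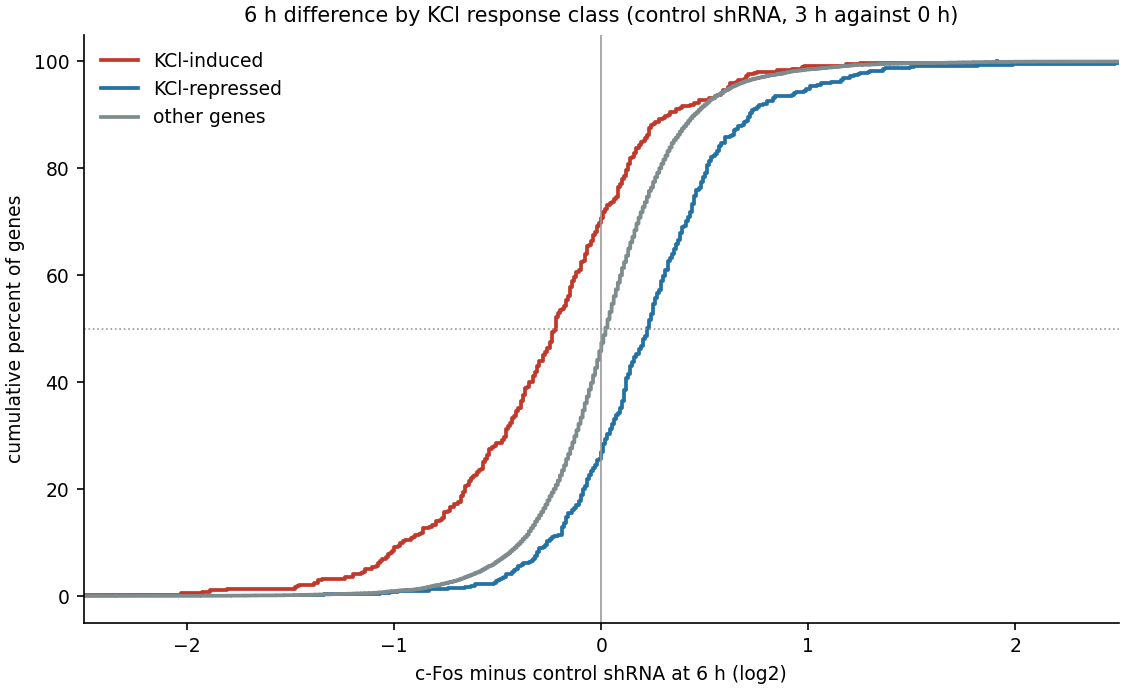
Cumulative percent of genes (vertical axis) against the c-Fos minus control shRNA difference at 6 h (log2, horizontal axis) for KCl-induced (370), KCl-repressed (474) and other genes (13071), classed by control shRNA arrays at 3 h and 0 h. The curve of the KCl-induced genes crosses the dotted line at -0.22, left of the other genes at 0.02, and that of the KCl-repressed genes crosses it at 0.22.

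Early-response transcription factors were lower more often than not among those called. These are the factors that, like Fos, are switched on first by calcium signals. Of 22 measured, 10 were lower (45.5%, beside 10.4% of all genes) and 1 higher (4.55%, beside 13.4%), or 13 and 2 with the replicate block. Only 4 of the 10 kept their call without each array in turn. The median was -0.35 at 6 h, and -0.13, -0.35 and -0.2 at 0, 1 and 3 h. At 0 h 5 of the 22 were called lower and 3 higher, and the change against 0 h was called downward for 2. Egr2, a zinc finger factor, read 608 and 589 with c-Fos shRNA against 1540 and 1250 with control shRNA (-1.16 ± 0.14, adjusted p = 0.0001). Egr3, its relative, read 1980 and 1450 against 3800 and 2960 (-0.95 ± 0.17, adjusted p = 0.0019), and was not called in the mean over its probe sets (-0.45, adjusted p = 0.109). Klf6, a Krüppel-like factor, read 2580 and 2700 against 3690 and 3560 (-0.42 ± 0.09, adjusted p = 0.00568). The orphan nuclear receptor Nr4a3 went the other way, at 12500 and 11900 against 9330 and 8730 (0.45 ± 0.08, adjusted p = 0.00176), and was not called in the mean over its probe sets (0.02). Egr1, the best known of the family, read 2540 and 2800 against 2290 and 2470 and was called in neither fit (0.17, interval -0.27 to 0.61).

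The list of feedback regulators of MAP kinase and calcium signalling showed only falls among its calls. It also holds genes described here with other roles, such as Btg2, Ppp1r15a and Gpr3. Of 31 measured, 14 were lower (45.2%, beside 10.4% of all genes) and none higher (18 and none with the block). Without each array in turn, 7 of the 14 kept their call. The median was -0.31 at 6 h, and 0.05, -0.17 and -0.27 at 0, 1 and 3 h. At 0 h 4 of the 31 were called lower and 6 higher, and the change against 0 h was called downward for 5. Btg2, an antiproliferative early gene, read 870 and 1020 with c-Fos shRNA against 2080 and 2370 with control shRNA (-1.20 ± 0.21, adjusted p = 0.00145). Rgs2, which switches off G proteins, read 10300 and 10600 against 13000 and 12900 (-0.31 ± 0.06, adjusted p = 0.00188). Ppp1r15a, a phosphatase subunit that restores translation after stress, read 1240 and 1430 against 1780 and 1800 (-0.41 ± 0.09, adjusted p = 0.00649). The dual-specificity phosphatase Dusp6 differed by -0.17 (interval -0.37 to 0.03) and was called in neither fit.

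Activity-induced effectors, a list of neuronal genes described as induced by activity, also showed only falls among their calls. Not all of them act at synapses, for example Hspb3, Mlf1 and Nefm. Like the other lists, this one was chosen with earlier results of these data known, so its shares are a description and not a test. Of 25 measured, 10 were lower (40%, beside 10.4% of all genes) and none higher (16 and none with the block). Without each array in turn, 8 of the 10 kept their call. The median was -0.36 at 6 h, and 0.05, -0.1 and -0.39 at 0, 1 and 3 h. At 0 h 3 of the 25 were called lower and 2 higher, and the change against 0 h was called downward for 5. Nptx2, neuronal pentraxin 2, which gathers AMPA receptors at synapses, read 1200 and 1460 with c-Fos shRNA against 3280 and 3830 with control shRNA (-1.37 ± 0.18, adjusted p = 0.000181). Ptgs2, the inducible cyclooxygenase, read 127 and 153 against 356 and 457 (-1.46 ± 0.30, adjusted p = 0.00416). Grasp, a scaffold of metabotropic glutamate receptors, read 2180 and 2270 against 4630 and 4710 (-1.02 ± 0.09, adjusted p = 1.42e-05). At 0 h none of these 3 genes was called (0.14, -0.08 and 0.24). Hspb3, a small heat shock protein, read 1030 and 870 against 2430 and 2550 (-1.35 ± 0.13, adjusted p = 1.9e-05). Scg2 (-0.36), Fbxo33 (-0.57) and Nefm (-0.49) fell less.

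Bdnf and Inhba lay near the threshold or varied between replicates. Bdnf, brain-derived neurotrophic factor, read 3830 and 4560 with c-Fos shRNA against 6400 and 7170 with control shRNA. Its difference of -0.66 just missed the call (adjusted p = 0.0526) and passed under 5 alternatives, among them the replicate block (adjusted p = 0.000454) and the fit of the compared groups alone (adjusted p = 0.00419). Inhba, the subunit of activin A, read 1450 and 788 against 3850 and 1940. Here the arrays of replicate 2 were dimmer than those of replicate 1 with both hairpins. Without the block the difference of -1.31 was not called (adjusted p = 0.167). With the block, which pairs the arrays, it was called (adjusted p = 1.29e-05). Homer1, a scaffold of the postsynaptic density, read 3500 and 3460 against 3170 and 3220 (0.14, interval -0.05 to 0.32), and Vgf, a precursor of secreted peptides, read 7010 and 6930 against 7390 and 7630 (-0.10, interval -0.24 to 0.03). Both were called in neither fit.

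**Figure D3:**
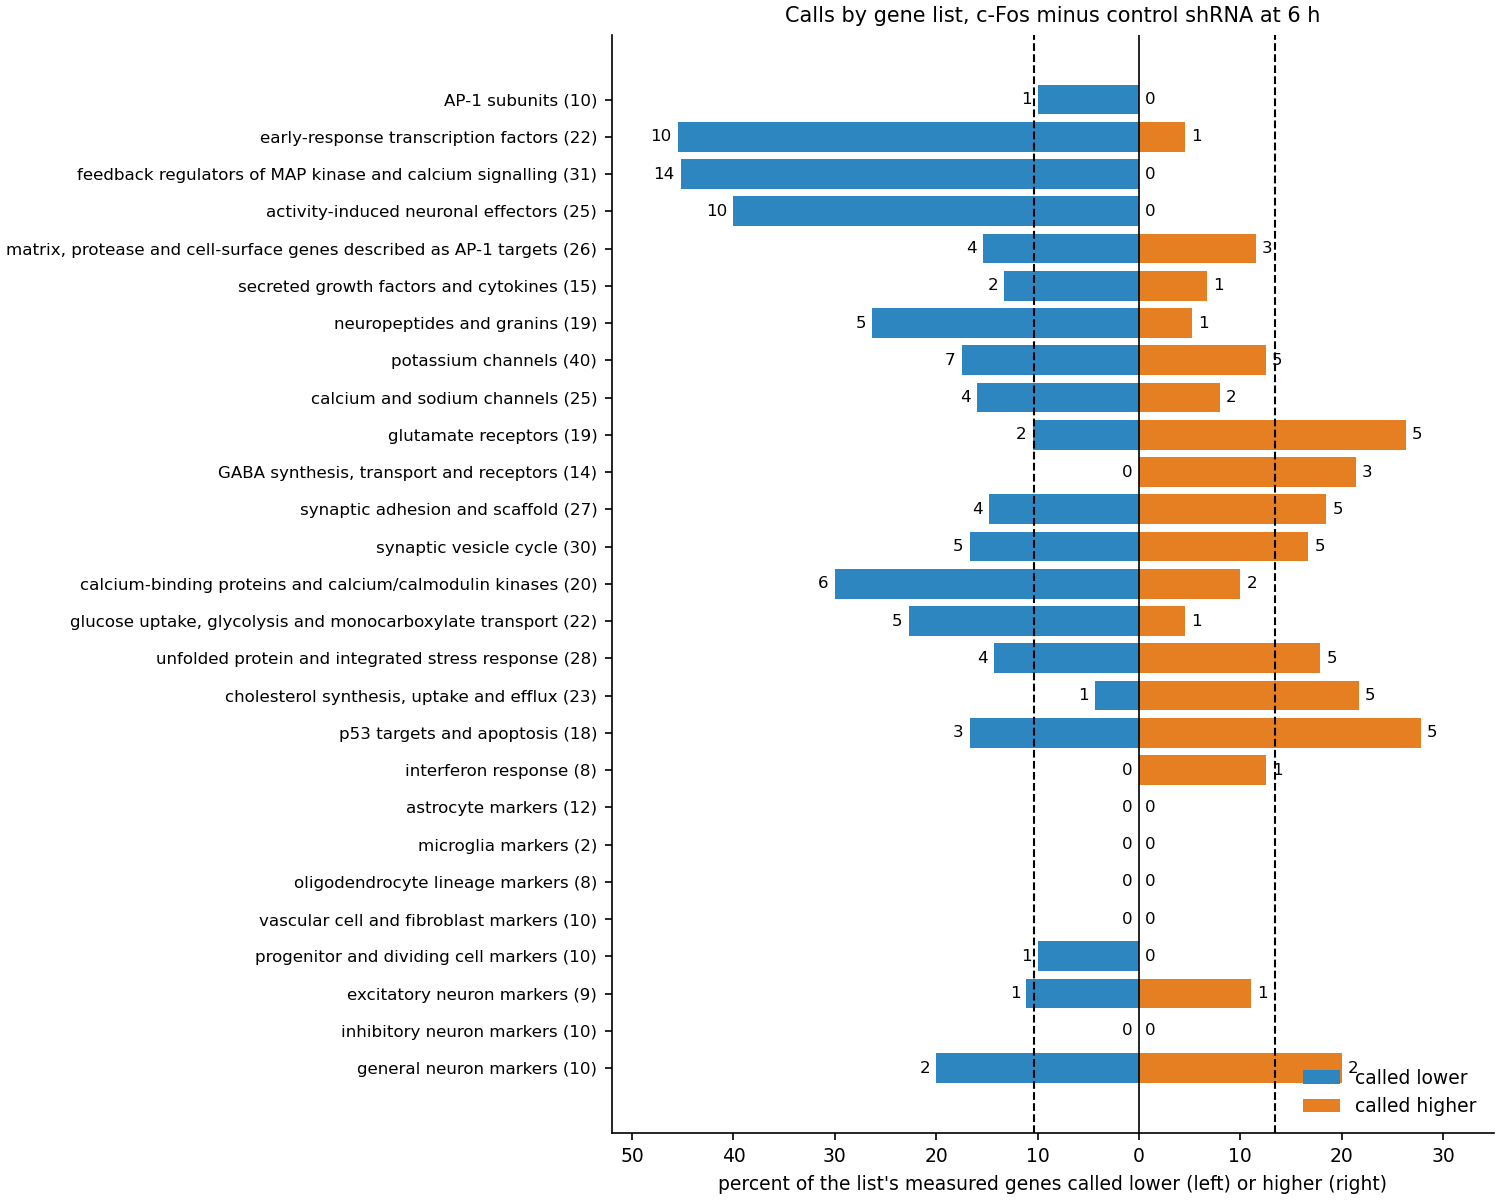
Percent of the measured genes of each of 27 gene lists called lower (blue, left) or higher (orange, right) with c-Fos shRNA at 6 h; brackets give the genes measured without Fos and numbers at the bars the genes called. Dashed lines mark the shares over all genes tested, 10.4% lower and 13.4% higher; early-response factors (45.5%), feedback regulators (45.2%) and activity-induced effectors (40%) reach farthest to the left.

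Among the rises, the largest was that of Smc2os, a non-coding transcript from the strand opposite Smc2. Smc2os read 180 and 245 with c-Fos shRNA against 7.16 and 15.4 with control shRNA (3.12 ± 0.24, adjusted p = 4.16e-06), where the control mean (log2 of 4.75) was under the level used to filter dim genes (5.786), so that the exact size and the rank are uncertain. KCl lowered it in the control neurons, with means of 82.1, 72.2 and 31.5 at 0, 1 and 3 h, while in the c-Fos shRNA neurons they were 252, 255 and 260. Prnp, the prion protein, read 9420 and 11700 against 1590 and 2160, a 5.56-fold rise (2.48 ± 0.30, adjusted p = 0.000115). Gpd1l, a glycerol-3-phosphate dehydrogenase that bears on sodium channel function, read 3130 and 3520 against 460 and 586, a 6.00-fold rise (2.59 ± 0.19, adjusted p = 2.67e-06). The other probe sets of Prnp and Gpd1l rose by 2.33 and 2.40. Pigq, an enzyme of GPI anchor synthesis, read 1600 and 1900 against 224 and 389 (2.48 ± 0.27, adjusted p = 4.82e-05), and Npnt, the matrix protein nephronectin, read 665 and 670 against 127 and 108 (2.40 ± 0.13, adjusted p = 4.2e-07). All 5 were also higher at 0 h, by 1.46, 2.35, 2.47, 1.83 and 1.78 in the order given.

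Of the other 15 largest rises, 13 were called higher at 0 h too, and Mpzl3 (1.91), a relative of myelin protein zero, and Glrb were not. Ddt, an enzyme related to macrophage migration inhibitory factor, rose by 2.06, B3glct, a glucosyltransferase, by 1.96 and Paqr9 by 1.95. Top1mt, the mitochondrial topoisomerase, rose by 1.91, Trappc2, a subunit of a vesicle tether, by 1.91, Fxyd6, a regulator of the sodium pump, by 1.86 and Ascc1 by 1.85. Tbc1d5, which acts on Rab GTPases, rose by 1.89 and was not called in the mean over its probe sets (0.42, adjusted p = 0.0523). Capsl, a calcium-binding protein, read 106 and 200 with c-Fos shRNA against 20.1 and 32.0 with control shRNA (2.00, adjusted p = 0.00579). Its control mean was under the filter level, and its call was lost without the c-Fos array of replicate 2 (1.66, adjusted p = 0.0591). Tspan17, a tetraspanin, read 557 and 743 against 118 and 235 (1.87, adjusted p = 0.00461), and its call was lost without the control array of replicate 1 (1.42, adjusted p = 0.0567).

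Transmitter receptors and transporters were among the largest rises. Gria3, an AMPA receptor subunit, read 1360 and 1510 with c-Fos shRNA against 271 and 371 with control shRNA (2.09 ± 0.12, adjusted p = 5.7e-07). Grm7, a presynaptic metabotropic glutamate receptor, read 1450 and 1800 against 369 and 403 (1.99 ± 0.14, adjusted p = 2.61e-06), while its dimmer probe sets differed by -0.30 and -0.13 and were not called. Slc6a11, the GABA transporter GAT-3, read 1180 and 1230 against 198 and 359 (2.08 ± 0.21, adjusted p = 3.15e-05). The rule that named these 3 required that the arrays of the hairpins not overlap. Glrb, the beta subunit of the glycine receptor, read 3180 and 4530 against 854 and 1280 (1.82 ± 0.38, adjusted p = 0.00415). Gria1, another AMPA receptor subunit, moved the opposite way, at 1710 and 2000 against 3150 and 3140 (-0.72 ± 0.10, adjusted p = 0.000219), and so did Grm4 (-1.47). Of 19 glutamate receptor genes measured 5 were higher (26.3%) and 2 lower (10.5%), with a median of -0.05 (5 and 5 with the block). Of 14 genes of GABA synthesis, transport and reception 3 were higher (21.4%) and none lower, with a median of 0.09 (5 and 1 with the block). Over all genes tested 13.4% were higher and 10.4% lower. Without each array in turn, 2 of the 5 glutamate receptor rises and 1 of the 3 GABA rises kept their call.

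Ion channel, vesicle cycle, and adhesion and scaffold genes were called in both directions, at shares near those of all genes (13.4% higher and 10.4% lower). For example, 12.5% of potassium channel genes were higher and 17.5% lower, and 16.7% of vesicle cycle genes were called each way. Of 40 potassium channel genes 5 were higher and 7 lower (6 and 11 with the block; median -0.06), and of 25 calcium and sodium channel genes 2 were higher and 4 lower (4 and 9; median -0.07). Without each array in turn, none of the 5 rises and 3 of the 7 falls of potassium channel genes kept their call, and 1 of the 2 rises and all 4 falls of calcium and sodium channel genes did. Kcnk3, a leak potassium channel, read 111 and 120 with c-Fos shRNA against 219 and 258 with control shRNA (-0.97 ± 0.11, adjusted p = 7.47e-05). Cacna1h, a low-voltage calcium channel, read 560 and 612 against 919 and 1090 (-0.75 ± 0.08, adjusted p = 5.25e-05), and the sodium channel Scn2a fell by 0.57. Of 30 genes of the synaptic vesicle cycle 5 were higher and 5 lower (8 and 9 with the block; median 0.03). Sv2c, a vesicle glycoprotein that KCl raised by 2.10 in the control neurons, read 151 and 178 against 389 and 320 (-1.06 ± 0.20, adjusted p = 0.00244). The complexins Cplx1 and Cplx2, which clamp vesicle fusion, fell by 0.41 and 0.57, and Rims1, an active zone scaffold, rose by 0.64. Of 27 adhesion and scaffold genes 5 were higher and 4 lower (6 and 6; median 0.02). Dlgap1, a postsynaptic scaffold, read 3110 and 3000 against 1390 and 1340 (1.14 ± 0.06, adjusted p = 5.29e-07). Of 20 calcium-binding proteins and calmodulin kinases 2 were higher (10%) and 6 lower (30%), with a median of -0.15 (3 and 10 with the block). Their share of falls was thus above that of all genes, and 3 of the 6 kept their call without each array in turn. Camk2d read 818 and 1000 against 1700 and 2070 (-1.02 ± 0.23, adjusted p = 0.00648).

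Monocarboxylate carriers and a glucose transporter were among the falls. Of 22 genes of glucose uptake, glycolysis and monocarboxylate transport 1 was higher, Gpd1l, and 5 were lower (1 and 9 with the block). These are 4.55% and 22.7%, beside 13.4% and 10.4% of all genes tested, with a median of -0.09. Slc16a1, the lactate and pyruvate carrier MCT1, read 2400 and 2080 with c-Fos shRNA against 5260 and 5380 with control shRNA (-1.20 ± 0.09, adjusted p = 3.91e-06). Slc2a1, the glucose transporter GLUT1, read 1580 and 1580 against 2440 and 3230 (-0.80 ± 0.16, adjusted p = 0.00402). KCl raised both in the control neurons, by 1.69 and 1.97. Slc16a7 fell by 0.73, and Ldha, a lactate dehydrogenase, differed by 0.03 (interval -0.15 to 0.21) and was called in neither fit.

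Of the stress list 17.9% were higher and 14.3% lower, and of the cholesterol list 21.7% and 4.35%. The p53 list had 27.8% and 16.7%, beside 13.4% and 10.4% of all genes tested. At 0 h 12 genes of the stress list were called higher and 2 lower, with a median of 0.23. The 0 h counts were 4 and 3 for the cholesterol list and 6 and 4 for the p53 list. Of 28 genes of the unfolded protein and integrated stress response 5 were higher and 4 lower (9 and 8 with the block; median 0.06), with the chaperone Hspa5 at 4710 and 5260 with c-Fos shRNA against 8540 and 9410 with control shRNA (-0.84 ± 0.08, adjusted p = 1.9e-05). Txndc5, a disulfide isomerase, rose by 1.38 and Manf, a secreted stress factor, by 0.73, and the stress factor Atf4 (0.14) was called in neither fit. Of 23 cholesterol genes 5 were higher and 1, Nceh1, lower (8 and 3; median 0.06). Lss, lanosterol synthase, read 2150 and 3490 against 646 and 960 (1.75 ± 0.24, adjusted p = 0.000302). Of 18 p53 targets and apoptosis genes 5 were higher and 3 lower (8 and 4; median 0.17). Ei24 read 4580 and 4680 against 1680 and 1890 (1.36 ± 0.08, adjusted p = 6.45e-07), and Bcl2l11, the death protein Bim, read 291 and 237 against 890 and 558 (-1.39 ± 0.23, adjusted p = 0.00113). Of 8 interferon response genes measured 1 was higher and none lower (2 and 2; median 0.26). Without each array in turn, 3 of the 5 rises and 1 of the 4 falls of the stress list, 2 of the 5 cholesterol rises, 2 of the 5 rises and all 3 falls of the p53 list and not the interferon rise kept their call.

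Among secreted factor and matrix genes, 26.3% of neuropeptide and granin genes were lower, beside 10.4% of all genes tested. Growth factor and cytokine genes (13.3%) and matrix genes (15.4%) were nearer that share. The shares called higher in these lists were 5.26%, 6.67% and 11.5%, beside 13.4% of all genes. Of 19 neuropeptide and granin genes 1 was higher and 5 lower (3 and 7 with the block; median 0). Besides Grp, Pnoc, the precursor of nociceptin, read 399 and 500 with c-Fos shRNA against 673 and 1020 with control shRNA (-0.87 ± 0.17, adjusted p = 0.00284), and Chgb, a granin of dense-core vesicles, fell by 0.30. Of 15 growth factor and cytokine genes 1 was higher and 2, Ang and Fgf18, were lower (1 and 5; median -0.19). Ang, the ribonuclease angiogenin, read 240 and 247 against 768 and 645 (-1.48 ± 0.14, adjusted p = 2.13e-05). Of 26 matrix, protease and cell-surface genes described as AP-1 targets 3 were higher and 4 lower (7 and 9; median -0.11). Mt2, a metallothionein, read 4530 and 5400 against 2910 and 3610 (0.63 ± 0.09, adjusted p = 0.000371). Without each array in turn, 3 of the 5 neuropeptide falls but not the rise kept their call. So did the falls of Ang and Fgf18 but not the rise in their list, and 1 of the 4 falls and 2 of the 3 rises of matrix genes.

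Markers of other cell types showed few differences, and their part in the results was not tested. Over all genes tested 13.4% were higher and 10.4% lower. None of 12 astrocyte, 2 microglia, 8 oligodendrocyte, 10 vascular and 10 inhibitory neuron markers measured was called (with the block 2 higher and 2 lower, none, 1 and 2, none and 1, and 2 and 1). The summed intensity of the astrocyte markers was 38000 and 43200 with c-Fos shRNA against 40700 and 45100 with control shRNA, and that of the inhibitory neuron markers 28000 and 28700 against 26200 and 27900. The other 9 of 11 microglia markers, Aif1 and Cx3cr1 among them, were below the filter. Of 10 progenitor markers Hes5, a Notch target, was lower at 285 and 294 against 500 and 487 (-0.76 ± 0.12, adjusted p = 0.000587), and none was higher (3 and 2 with the block). General neuron markers were split (2 higher and 2 lower of 10, and 3 and 4 with the block), with Tubb3 at 10400 and 10900 against 7100 and 7750 (0.52 ± 0.05, adjusted p = 2.21e-05) and Rbfox3 at 3720 and 4310 against 6570 and 7840 (-0.81 ± 0.12, adjusted p = 0.00046). The excitatory neuron factor Neurod2 read 3050 and 2820 against 5900 and 6100 (adjusted p = 1.17e-05), and of 9 excitatory neuron markers 1 was higher and 1 lower (2 and 3 with the block). Gad1, which makes GABA, read 9250 and 8840 against 7580 and 8390 (0.18) and was called only with the block (adjusted p = 0.0147).

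More than 1 in 2 of the genes called at 6 h were already called the same way before KCl. At 0, 1, 3 and 6 h of KCl 1674, 1496, 1727 and 1859 genes were higher and 1428, 1389, 1513 and 1452 lower with c-Fos shRNA. Of the 1859 genes higher at 6 h, 1098 were called higher at 0 h (59.1%), 902 at all 4 times and 399 at 6 h alone. Of the 1452 genes lower at 6 h, 818 were called lower at 0 h (56.3%), 692 at all 4 times and 287 at 6 h alone. Of the falls of at least 2-fold, 103 of 150 were called at 0 h, and of such rises 184 of 213. The arrays of the 4 times are separate, and Fos was at 135 against 246 at 0 h, where its difference was the -0.77 given above. A gene called at 6 h and not at 0 h is not thereby shown to differ between the times, which the next test addresses.

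The difference between the hairpins at 6 h was set against that at 0 h as an interaction. It was lower at 6 h for 109 genes (0.783%) and higher for 63 (0.453%), and with the replicate block for 784 and 795. With only the compared groups fitted, 13 genes were lower and none higher. The total of 172 became 120 without the c-Fos 6 h array of replicate 1 and 40 to 94 without any other of the 8 arrays, the lowest being without the control 0 h array of replicate 1. Of the 1452 genes lower at 6 h, 66 had a difference that was also lower than at 0 h, and of the 1859 genes higher at 6 h, 25 had one that was also higher. Fos was among the 66, with a change in the difference of -1.08 (adjusted p = 0.00581).

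**Figure D4:**
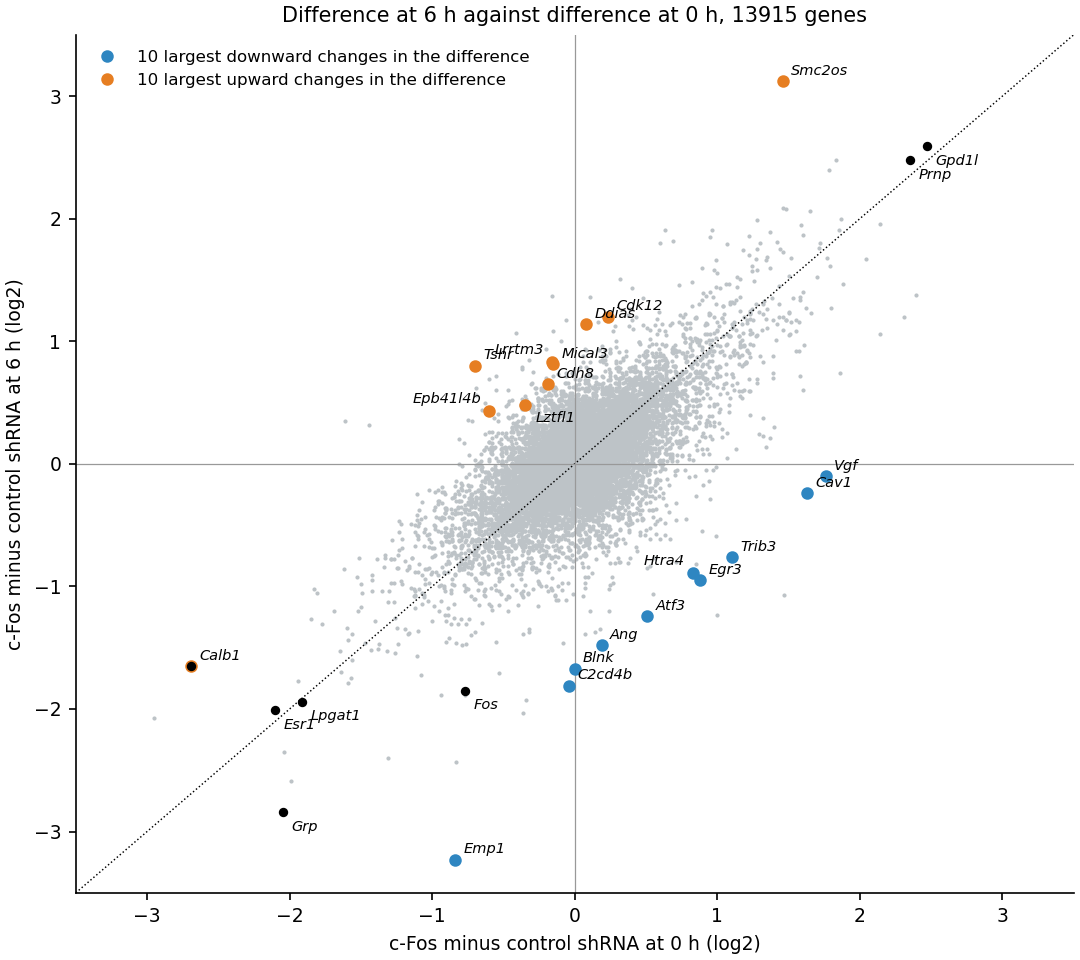
Difference between c-Fos and control shRNA (log2) at 6 h (vertical axis) against that at 0 h (horizontal axis), 1 point per gene for 13915 genes, with equal differences on the dotted line. Blue and orange points are the 10 genes whose difference moved most downward and upward; Emp1 lies at -0.84 and -3.23, Vgf at 1.76 and -0.10, and Lpgat1, Esr1, Prnp and Gpd1l lie near the line.

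The genes whose difference moved downward differed in where they stood at 0 h. Emp1 (-0.84), Fos (-0.77) and B230216N24Rik (-0.77) were already called lower at 0 h. C2cd4b (-0.04) and Ang (0.19) were not called at 0 h. Blnk, a signalling adapter, read 37.2 and 61.8 with c-Fos shRNA against 150 and 224 with control shRNA at 6 h (-1.67). At 0 h it averaged 33.6 against 33.4, under the level used to filter dim genes (log2 of 5.786), so no difference could be measured there. Several others began at 0 h above the control neurons. Vgf averaged 821, 3960, 6950 and 6970 after 0, 1, 3 and 6 h with c-Fos shRNA and 233, 3590, 6620 and 7510 with control shRNA. Its difference was therefore 1.76 at 0 h (adjusted p = 2.52e-08) and -0.10 at 6 h. Egr3 averaged 1230 against 672 at 0 h, and Cav1, the coat protein of caveolae, 837 against 261 at 0 h, while at 6 h Cav1 read 198 and 268 against 246 and 309. Htra4, a serine protease, differed by 0.83 at 0 h and by -0.89 at 6 h, and its 6 h call was lost without the control array of replicate 2 (-0.73, adjusted p = 0.0529). Trib3, a stress-induced pseudokinase, differed by 1.10 and by -0.76, and its 6 h call (adjusted p = 0.0452) was lost without any of the 4 arrays, with differences between -0.90 and -0.63.

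**Figure D5:**
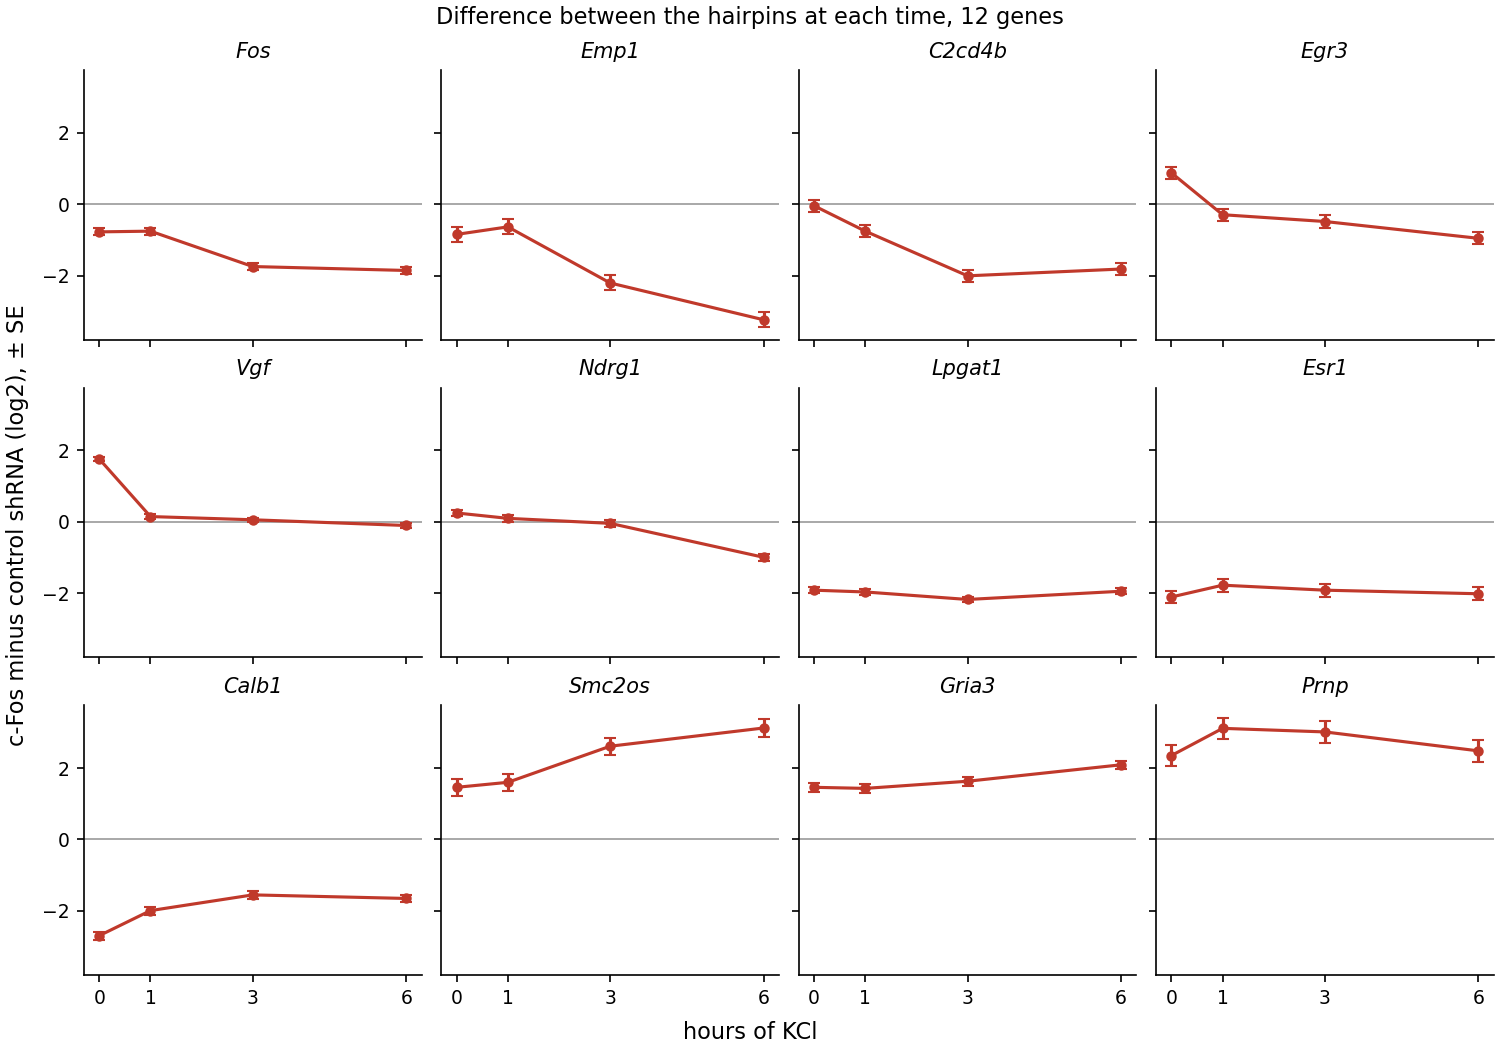
Difference between c-Fos and control shRNA (log2, ± SE of the fit over 2 arrays per group) at 0, 1, 3 and 6 h of KCl for 12 genes on 1 scale. Fos, Emp1 and C2cd4b move downward between 1 and 3 h, Ndrg1 between 3 and 6 h, Vgf between 0 and 1 h, and Lpgat1, Esr1 and Prnp stay apart from 0 at every time.

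Genes whose difference moved upward showed smaller changes. Calb1, the calcium buffer calbindin, averaged 508, 892, 1380 and 1570 with c-Fos shRNA after 0, 1, 3 and 6 h and 3220, 3500, 4170 and 5120 with control shRNA. So Calb1 was lower throughout, with differences of -2.69 at 0 h and -1.65 at 6 h. Ddias read 327 and 326 with c-Fos shRNA against 138 and 147 with control shRNA at 6 h (1.14, adjusted p = 0.000126) and differed by 0.08 at 0 h. Mical3, which oxidizes actin, differed by 0.81 at 6 h and -0.15 at 0 h, Cdh8, a cadherin, by 0.65 and -0.19, and Lztfl1, a protein of cilia, by 0.48 and -0.35. For 4 further genes the probe sets did not speak with 1 voice: in the mean over all probe sets the 6 h difference of Tshr (0.80) became 0.08, that of Cdk12 (1.20) became 0.32, that of Lrrtm3 (0.83) became -0.01 and that of Epb41l4b (0.43) became -0.09. For Epb41l4b a pair of probe sets are about equally bright, and the other takes over as the brightest without the c-Fos array of replicate 1 (-0.01), the c-Fos array of replicate 2 (-0.53) or the control array of replicate 1 (-0.43). With the probe set held, an alternative chosen after seeing the data, these differences were 0.39, 0.47 and 0.51, and none was called.

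Against the difference at 3 h, that at 6 h was changed for 11 genes (0.0791%), 8 lower and 3 higher, by limma with Benjamini-Hochberg adjustment. At an unadjusted p under 0.05 there were 779, and with the replicate block 172. The count was 1 to 4 without single arrays of the 8 involved. Ndrg1, a gene named for its regulation by N-myc, read 865 and 938 with c-Fos shRNA against 1860 and 1790 with control shRNA at 6 h (-0.99 ± 0.09, adjusted p = 1.22e-05), and its difference was -0.04 at 3 h. The change in its difference between the 2 times had a limma adjusted p of 0.0281. Of its 5 probe sets 4 were called lower, between -0.99 and -0.88. Calhm5, a member of the calcium homeostasis modulator family, read 30.2 and 34.8 against 118 and 115 (-1.45), with 0.15 at 3 h. The c-Fos level of Calhm5 at 6 h and both levels at 3 h (32.2 against 28.3) were under the level used to filter dim genes, so the exact size of its difference is uncertain. Slitrk1, a synaptic adhesion protein, read 2900 and 2820 against 2030 and 2140 at 6 h (0.46), and averaged 1090 against 1360 at 3 h (-0.31). For the change against 3 h the limma adjusted p was 0.00486 for Slitrk1 and 0.0426 for Calhm5.

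The remaining 8 of those 11 genes differed at 3 h and less, or not detectably, at 6 h. By limma, their change against 3 h had an adjusted p of 0.00385 for Prrc1 and of 0.0426 for the rest. Met, the receptor of hepatocyte growth factor, read 3140 and 3560 with c-Fos shRNA against 3100 and 3420 with control shRNA at 6 h (0.06, interval -0.07 to 0.20), and differed by 0.64 at 3 h. Fbxo28, an F-box protein, read 1600 and 1550 against 1640 and 1650 at 6 h (-0.07, interval -0.21 to 0.08). Fbxo25 (0.98), Zc2hc1a (0.95), Prrc1 (0.42) and Tmem41a (0.34) were still higher at 6 h, and Arhgef17 (-0.74) and Fbxl4 (-0.51) still lower. In the mean over their probe sets Prrc1 (0.13) and Arhgef17 (-0.34) were not called at 6 h. The call of Tmem41a was lost without the c-Fos array (0.30, adjusted p = 0.0663) or the control array (0.29, adjusted p = 0.0742) of replicate 1.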

How the data were processed

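RNA from 16 cultures was labelled and hybridised to Affymetrix mouse 430 2.0 arrays, per the labels' protocols. The authors' deposited values are 1 linear intensity per probe set and array, and how probes were summarized or scaled, and with what software, is not given in the sources used here. Arrays have no read depth, and precision is limited by their number. Of 45101 probe sets, 64 controls were left out, 34945 had 1 gene symbol, 932 several and 9160 none, and 34741 matched RefSeq genes. Values were taken as log2(intensity + 16) and quantile normalized, because array medians (105 to 119) were more than 10% apart. Each gene was represented by its brightest probe set, and genes under the 30th percentile (log2 of 5.786) were left out, which left 13915 of 18193. limma 3.58.1 in R 4.3.3 fitted 8 group means with 8 residual degrees of freedom and an intensity trend, and p-values were adjusted by the Benjamini-Hochberg method. A fold change on this scale understates that of dim genes. The fit was also run on simulated data whose arrays vary independently. Such data lack the shared deviations of same-numbered arrays described below, so that run cannot speak for the calls here.

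Groups and replicate numbers come from the array titles. Arrays with the same number deviated together in 28 of 28 pairs of groups (correlations 0.36 to 0.60, median 0.48), so the numbers were taken to pair the arrays, and a fit with the number as a block was run beside the one without. Named genes are Fos, the 20 largest called falls and rises at 6 h without overlap, the 10 largest called changes each way against 0 h and against 3 h, and members of 27 gene lists (532 of 586 symbols on the array, 484 tested). The comparison, the lists and the tests were chosen with earlier results of these data known. Alternatives varied the normalization, pseudocount, filter, probe set rule, intensity trend, block, arrays fitted and arrays left out. Promoters came from RefSeq (GRCm38.p6).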

Additional observations from a re-analysis of the deposited data

Results flagged for a closer look

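The difference between c-Fos and control shRNA changed with KCl by the test of the interaction itself. Set against 0 h, it was lower at 6 h for 109 genes and higher for 63, and set against 3 h it was lower for 8 and higher for 3. With only the compared groups fitted, 13 were lower and none higher against 0 h, and none either way against 3 h (limma, 604 at an unadjusted p under 0.05). For Fos the change against 0 h was -1.08.

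Downward against 0 h, the change was -2.39 for Emp1, -1.88 for Cav1, -1.87 for Trib3, -1.86 for Vgf and -1.83 for Egr3. It was -1.77 for C2cd4b, -1.75 for Atf3, -1.72 for Htra4, -1.67 for Ang and -1.67 for Blnk. Upward against 0 h, it was 1.65 for Smc2os, 1.5 for Tshr, 1.07 for Ddias, 1.04 for Calb1 and 1.03 for Epb41l4b, and 0.98 for Lrrtm3, 0.98 for Cdk12, 0.96 for Mical3, 0.84 for Cdh8 and 0.83 for Lztfl1.

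Against 3 h, the change was -1.60 for Calhm5, -1.09 for Prrc1, -1.08 for Fbxo25, -0.96 for Ndrg1, -0.77 for Tmem41a, -0.71 for Zc2hc1a, -0.63 for Fbxo28 and -0.57 for Met. It was 1.12 for Arhgef17, 0.88 for Fbxl4 and 0.77 for Slitrk1.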

How the results depend on the processing

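Fos was called lower under every alternative run, between -1.89 and -1.81. The replicate block gave 5777 calls at 6 h, 1579 for the change against 0 h and 172 against 3 h, and, with the KCl classes recomputed too, 179 KCl-induced genes were lower and 197 KCl-repressed genes higher; the block ended no call of a named gene. With only the compared groups in the fit, which leaves fewer arrays, the counts were 2159, 13 and 0 (by limma, with 604 at an unadjusted p under 0.05), and 69 KCl-repressed genes were higher. The mean over all probe sets gave 82 and 4 changes against 0 h and 3 h and 80 KCl-repressed genes higher. The changes against 3 h numbered 2 without further normalization, 7 with arrays shifted to 1 median, 3 without a filter and 6 without the intensity trend; the cause was not tested. Leaving out 1 array at a time, the calls at 6 h ranged from 2099 to 2629, the changes against 0 h from 40 to 120 and against 3 h from 1 to 4, KCl-induced genes lower from 70 to 123 and KCl-repressed genes higher from 77 to 175. Signs turned for Epb41l4b in the mean over probe sets (-0.09) and, where another probe set took over, with a pseudocount of 64 (-0.21) and without single arrays (range over the 4 arrays -0.53 to 0.34), for Lrrtm3 (-0.01), Fosl2 (-0.42) and Jund (0.05) in the mean over probe sets, and for Ldha without single arrays (range -0.06 to 0.13).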
